A study of Populus tremula x Populus alba with 6 samples.

Results

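Chromosome 19 is the chromosome that carries the sex-determining region of poplars, and the regions described here are the ChIP-seq peaks that lie on it. They were chosen by position alone, as the peaks whose chromosome entry was chromosome 19. That gave 604 of 18975 peaks in the P. alba list and 510 of 17040 in the P. tremula list, 1114 of 36015 in all. A further 892 and 822 peaks lay on unplaced scaffolds and were left out of the comparisons. The peaks come from chromatin immunoprecipitation sequencing of mesophyll protoplasts, leaf cells freed of their walls, from the hybrid Populus tremula x Populus alba. The protoplasts transiently expressed the transcription factor PtrbHLH011 with a 10xMyc epitope tag. The labels list 3 anti-Myc ChIP libraries and 3 input libraries with no antibody, all from protoplasts given this construct, and no library without it. Such a transient construct can give a protein level unlike that of the cell's own gene. The deposited values are 1 peak list for each parental chromosome set, called a subgenome below, and no value belongs to a single library. No spread between replicates could therefore be given, and intervals and tests cover counting error over peaks only.

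Poplars are dioecious trees with separate males and females. In P. tremula, males carry the sex-specific copy of the sex-determining region, and in P. alba females carry it. In both of these species the region lies near the middle of the chromosome, whereas in P. trichocarpa it lies close to an end. The known sex switch is a cytokinin response regulator gene. Basic helix-loop-helix (bHLH) factors such as PtrbHLH011 bind DNA as dimers, typically at short motifs called E-boxes, and the Arabidopsis factor bHLH11 is known as a negative regulator of iron uptake genes. The deposited lists hold a single chromosome 19 per subgenome, with no sequence named X, Y, Z or W, and the labels do not give the sex of the tree. No peak could therefore be placed inside or outside a sex-determining region. Every chromosome 19 peak was annotated to a gene whose identifier names chromosome 19. The identifiers are paired with no gene name in the files, so few of them are printed. The remaining peaks are identified by coordinates that count from 1 on the chromosome sequence used for that list. The genome build is not given in the sources used here, and no sequence is shown. Positions given below can therefore not be set against those of the native chromosome of either species.

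Peaks per Mb were lowest on chromosome 19 in both lists. There were 38.0 peaks per Mb on P. alba (95% Poisson interval 35.0 to 41.1) over a span of 15.9 Mb, the end of the last gene or peak in the list. The other chromosomes ran from 38.8 per Mb on chromosome 18 to 53.3 on chromosome 8. On P. tremula there were 32.1 per Mb (29.3 to 35.0), against 34.2 to 48.7 on the others. The interval of chromosome 19 overlaps those of 6 of the 18 other chromosomes on P. alba (4, 11, 12, 16, 17 and 18) and of 4 on P. tremula (12, 16, 17 and 18), so the order among these is not settled by the counts. The peaks were annotated to 410 genes on P. alba and 370 on P. tremula, which is 25.8 and 23.3 peak-bearing genes per Mb. The lowest values among the other chromosomes were 27.1 and 25.1, both on chromosome 18.

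Fewer of the chromosome 19 peaks were at promoters, and more of them lay far from genes. The authors' promoter class, which reaches 3 kb upstream and downstream of annotated gene starts, held 299 of 604 P. alba peaks (49.5%, exact 95% interval 45.4 to 53.6%), against 62.4% on the other 18 chromosomes. The odds ratio was 0.590 (0.501 to 0.694, Fisher's exact test, two-sided, Benjamini-Hochberg adjusted p = 8.00e-10). On P. tremula it held 255 of 510 peaks (50%, 45.6 to 54.4%), against 62.7% (odds ratio 0.596, 0.499 to 0.711, adjusted p = 2.94e-08 by Fisher's exact test). Both shares were the lowest of the 19 chromosomes. The next lowest was on chromosome 17, with 57.3% for P. alba and 57.4% for P. tremula, and the highest was on chromosome 9, with 74.5% and 74.2%. Adjusted p values here and below are over 14 share tests, 7 in each list. Peaks on a chromosome are not independent of one another, and the chromosomes differ among themselves. Values of single other chromosomes are therefore given beside the main tests.

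Distal intergenic peaks were more frequent. They numbered 241 on P. alba (39.9%, 36.0 to 43.9%), against 24.8% on the other chromosomes (odds ratio 2.01, 1.70 to 2.37, Fisher's exact adjusted p = 1.01e-14). On P. tremula they numbered 189 (37.1%, 32.9 to 41.4%), against 24.8% (odds ratio 1.78, 1.49 to 2.14, Fisher's exact adjusted p = 5.49e-09). No other chromosome passed 31.1% on P. alba or 31.7% on P. tremula, both on chromosome 17. The remaining classes were small. There were 26 P. alba and 28 P. tremula peaks in exons outside the promoter class, 22 and 20 in introns, and 16 and 18 just downstream of genes.

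**Figure D1:**
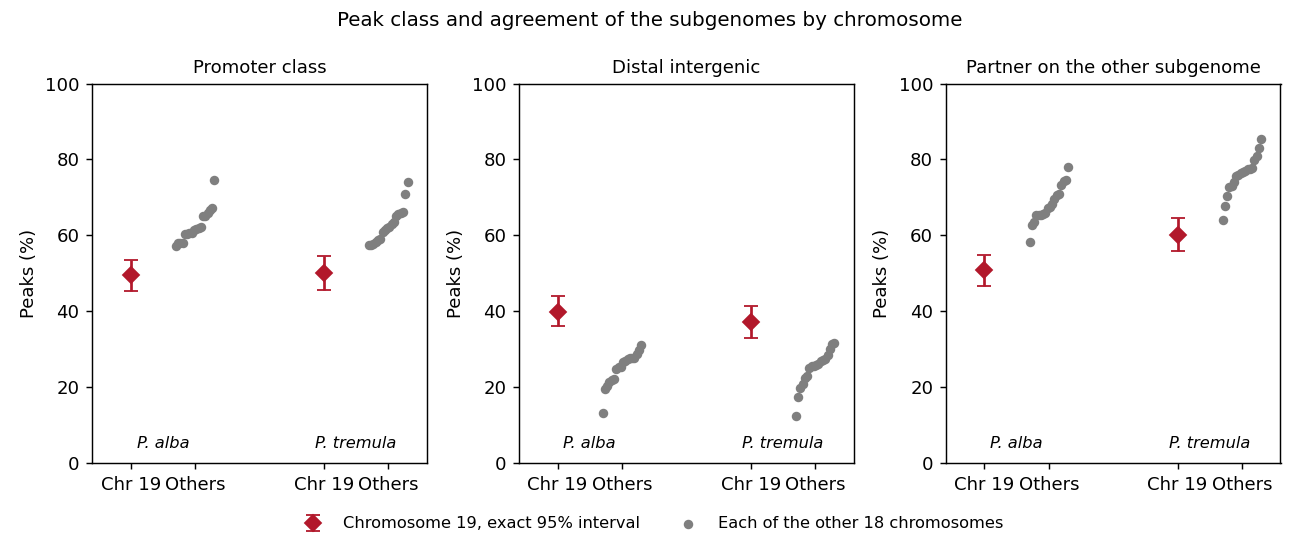
Share of peaks (%) in the promoter class, in distal intergenic regions and with a partner on the other subgenome, for chromosome 19 (diamonds, exact 95% intervals) and each of the other 18 chromosomes (dots, sorted by value). In each panel and each list the chromosome 19 value lies outside the range of the other 18.

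The promoter share was lower at each distance from the start. Promoter peaks within 1 kb made up 22.7% on P. alba and 22.5% on P. tremula, against 30.96% and 31.4% on the other chromosomes. Those at 1 to 2 kb made up 14.9% and 15.7%, against 18.1% and 17.9%. Those at 2 to 3 kb made up 11.9% and 11.8%, against 13.4% in each list. Summits within 250 bp of a start numbered 53 on P. alba (8.77%) and 42 on P. tremula (8.24%), against 12.2% and 12.3%, and these were again the lowest shares of the 19 chromosomes. The median summit lay 3087 bp from the start of its gene on P. alba and 3077 bp on P. tremula, farther than on any other chromosome (1483 to 2563 bp and 1415 to 2636 bp). Distances and subclasses were not tested apart from the promoter share itself. Among promoter peaks the layout was close to that elsewhere: the summit lay upstream of the start in 33.8% and 36.1%, against 38.2% and 38.8%, and inside the gene in 52.8% and 50.2%, against 51.4% and 50.9%.

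**Figure D2:**
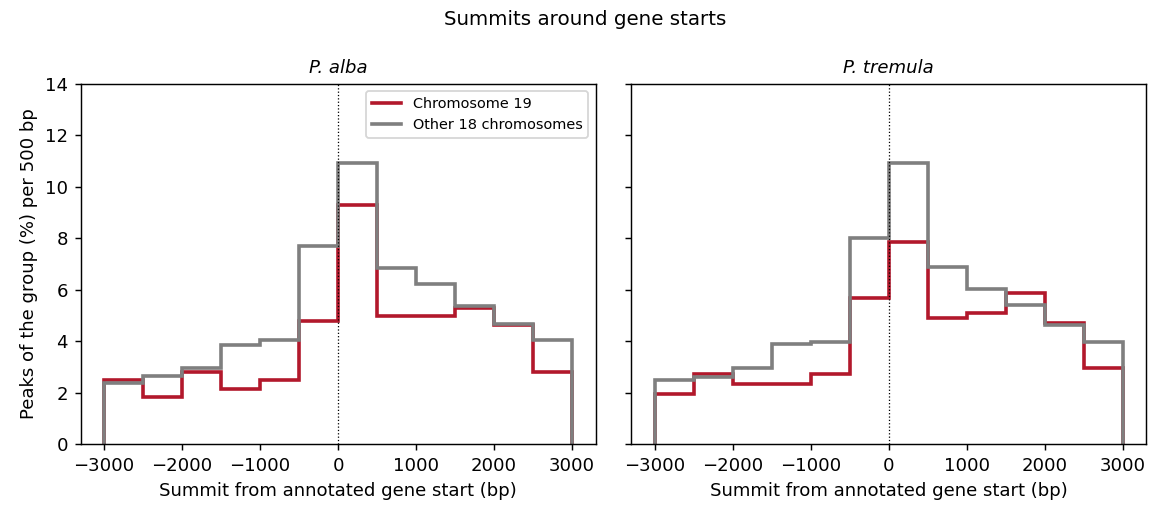
Share of peaks (% of the group per 500 bp) by distance of the summit from the annotated start of its gene, upstream to the left, for chromosome 19 and the other 18 chromosomes. The first 500 bp past the start are the fullest bin in each line, and chromosome 19 lies below the others from 1500 bp upstream to 1500 bp downstream of the start.

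Chromosome 19 held fewer of the shallowest peaks. The pileup is the read coverage at the summit, and the lowest in either list is 5 reads. Summits of 5 to 9 reads made up 65.2% of chromosome 19 peaks on P. alba and 65.1% on P. tremula, against 80.7% and 79.9% elsewhere. The excess was largest at 10 to 19 reads, a class of 127 P. alba peaks (21.0%, against 9.46%) and 92 P. tremula peaks (18.04%, against 9.57%). Summits of 20 or more reads numbered 83 on P. alba (13.7%, 11.1 to 16.7%), against 9.81% on the other chromosomes (odds ratio 1.47, 1.16 to 1.86, Fisher's exact adjusted p = 0.00354). On P. tremula they numbered 86 (16.9%, 13.7 to 20.4%), against 10.5% (odds ratio 1.73, 1.37 to 2.1955, Fisher's exact adjusted p = 3.13e-05). Chromosome 19 did not have the highest share, which was 23.8% for P. alba and 26.1% for P. tremula, on chromosome 13. Without a 20 kb stretch of deep peaks described below, the P. alba share was 12.0% and the difference no longer passed the test (odds ratio 1.25, Fisher's exact adjusted p = 0.112). The P. tremula share was then 14.3% and still passed it (odds ratio 1.43, Fisher's exact adjusted p = 0.0132). The stretch was picked for its deep peaks, so leaving it out lowers these shares by construction, and deep stretches of other chromosomes were kept. With 50 or more reads as the limit, neither list passed it (odds ratios 1.36 and 1.46, Fisher's exact adjusted p = 0.167 and 0.101).

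**Figure D3:**
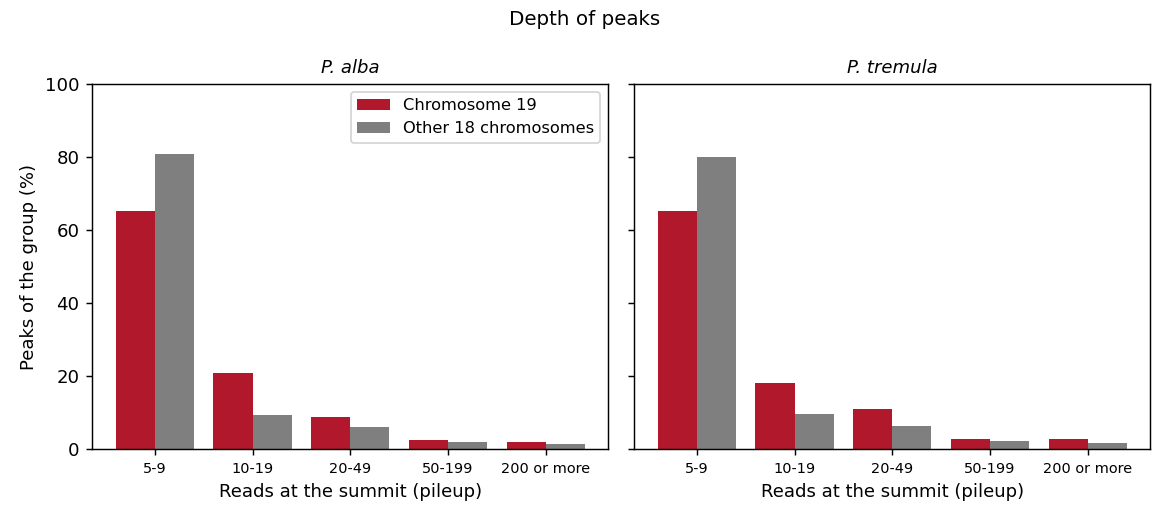
Share of peaks (% of the group) by read coverage at the summit for chromosome 19 and the other 18 chromosomes. In both lists chromosome 19 is below the others at 5 to 9 reads and above them in the 4 deeper classes.

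The share of peaks with a high fold did not pass the test, and median folds at 20 to under 200 reads were lower than elsewhere. The median fold enrichment over the caller's local background was 3.52 on chromosome 19 and on the other chromosomes of P. alba, and 3.53 on both for P. tremula, values held equal by the many ties among shallow peaks. Folds of 5 or more were reached by 57 P. alba peaks (9.44%, 7.23 to 12.1%), against 7.87%, and by 41 P. tremula peaks (8.04%, 5.83 to 10.7%), against 7.80%. Neither difference passed the test (odds ratio 1.22, 0.923 to 1.61, adjusted p = 0.213 on P. alba, and 1.03, 0.747 to 1.43, adjusted p = 0.802 on P. tremula, Fisher's exact test). Single other chromosomes ran from 6.56 to 10.7% on P. alba and from 6.03 to 10.5% on P. tremula. A fold of at least 10 was reached by 3 P. alba and 2 P. tremula peaks. Within depth classes the values were less alike. The median fold at 20 to 49 reads was 3.61 on P. alba and 3.77 on P. tremula, against 4.71 and 4.70 on the other chromosomes. From 50 to under 200 reads it was 2.57 and 2.29, against 4.63 and 3.87. With 200 or more reads it was 3.25 and 2.87, against 2.82 and 2.71. These medians within depth classes were not tested, and those from 50 to under 200 reads rest on 16 and 15 chromosome 19 peaks. The highest folds on the chromosome were 11.1 and 11.01, in lists that reach 677.7 and 655.0 elsewhere.

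The local background was higher. It was recovered for each peak as (pileup + 1) / fold - 1, with 1 read taken as the caller's pseudocount. It lay at the lowest value of the list, within 0.01 reads, at 264 P. alba peaks (43.7%, 39.7 to 47.8%), against 61.2% on the other chromosomes, and at 217 P. tremula peaks (42.5%, 38.2 to 47.0%), against 58.8%. This comparison was added once the data had been seen, and gave odds ratios of 0.493 (0.419 to 0.581, adjusted p = 1.12e-16) and 0.519 (0.434 to 0.620, adjusted p = 1.14e-12, Fisher's exact test, over 6 added tests). These were the lowest shares of the 19 chromosomes. The caller's q value was at or under 0.05 at 464 P. alba peaks (76.8%, 73.2 to 80.1%), against 72.1% (odds ratio 1.28, 1.06 to 1.55, Fisher's exact adjusted p = 0.0153), and at 405 P. tremula peaks (79.4%, 75.6 to 82.8%), against 72.1% (odds ratio 1.49, 1.20 to 1.86, Fisher's exact adjusted p = 0.000409). Single other chromosomes ran from 68.2 to 77.1% on P. alba and from 69.2 to 79.1% on P. tremula. On P. alba chromosome 13 was thus above chromosome 19.

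The promoter share was lower than elsewhere in each of the 3 shallower depth classes, though the interval excluded the share elsewhere in both lists only at 5 to 9 reads. Among summits of 5 to 9 reads, 56.1% of P. alba (51.0 to 61.1%) and 55.4% of P. tremula peaks (49.9 to 60.9%) were at promoters, against 66.4% and 66.9%. The class of 10 to 19 reads had 30.7% on P. alba (22.8 to 39.5%), against 43.8%, and 33.7% on P. tremula (24.2 to 44.3%), against 42.4%, where the interval includes the share elsewhere. The class of 20 to 49 reads had 29.6% on P. alba (17.98 to 43.6%), against 40.7%, and 29.8% on P. tremula (18.4 to 43.4%), against 42.6%, and both intervals include the share elsewhere. From 50 to under 200 reads the share was 62.5% on P. alba (16 peaks, interval 35.4 to 84.8%), against 45.7%, and 60% on P. tremula (15 peaks, interval 32.3 to 83.7%), against 44.1%. Both intervals include the share elsewhere. All 13 P. alba and all 14 P. tremula peaks of 200 or more reads were at promoters, against 78.9% and 79.7% of such peaks elsewhere, values inside the exact intervals of 75.3 to 100% and 76.8 to 100%. Of these peaks 9 and 12 lay in the single 20 kb stretch described below.

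Along the chromosome, peaks ran from 68233 to 15912736 on P. alba and from 48500 to 15909423 on P. tremula. In 16 windows of 1 Mb there were 26 to 53 peaks on P. alba, with a median of 35.5, and 20 to 43 on P. tremula, with a median of 31.5. The third window was the fullest on P. alba, with 53 peaks, and the fullest P. tremula windows were the fourth and the thirteenth, with 43 each. The ninth window was the emptiest on both, with 26 and 20 peaks, and the sixth also held 20 P. tremula peaks. The longest stretch without a peak ran from 7882141 to 8207746 on P. alba (325606 bp), across the end of the eighth window, and from 8023940 to 8284822 on P. tremula (260883 bp), near the start of the ninth. The median gap between neighbouring peaks was 15389 bp and 18271 bp.

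The peaks between 5000001 and 8000000, a stretch singled out after seeing the values, were mostly distal. It held 97 P. alba peaks at 48 genes and 84 P. tremula peaks at 40 genes. Only 29 P. alba (29.9%) and 27 P. tremula peaks (32.1%) were in the promoter class, and 63 (64.9%) and 52 (61.9%) were distal. From 8000001 to 16000000, promoters held 55.8% and 55.6%, and between 1000001 and 5000000 they held 49.7% and 49.6%. Summits of 20 or more reads made up 25.8% and 32.1% of the peaks in the 3 Mb stretch, against 6.90% and 7.41% from 8000001 on. They were nearly as frequent between 1000001 and 5000000, at 22.0% and 27.8%. The median distance to the gene start was 6522 bp on P. alba and 8280 bp on P. tremula, and the median recovered background was 1.85 and 2.87 reads, against 0.989 and 0.993 reads from 8000001 on. The lowest promoter shares by window were in the seventh, at 24.1% for P. alba and 20% for P. tremula. The highest were in the twelfth, at 72.0% and 73.2%, where 1 peak in each list had 20 or more reads.

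Low promoter shares were not limited to this chromosome. Of the windows with at least 10 peaks, 9 of 16 on P. alba and 8 of 16 on P. tremula had under 50% of their peaks at promoters, against 87 (22.7%) and 89 (23.2%) of 383 on the other chromosomes. Under 40% were 5 and 3 windows, against 55 (14.4%) and 59 (15.4%). Neighbouring windows are not independent, and these counts were not tested.

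**Figure D4:**
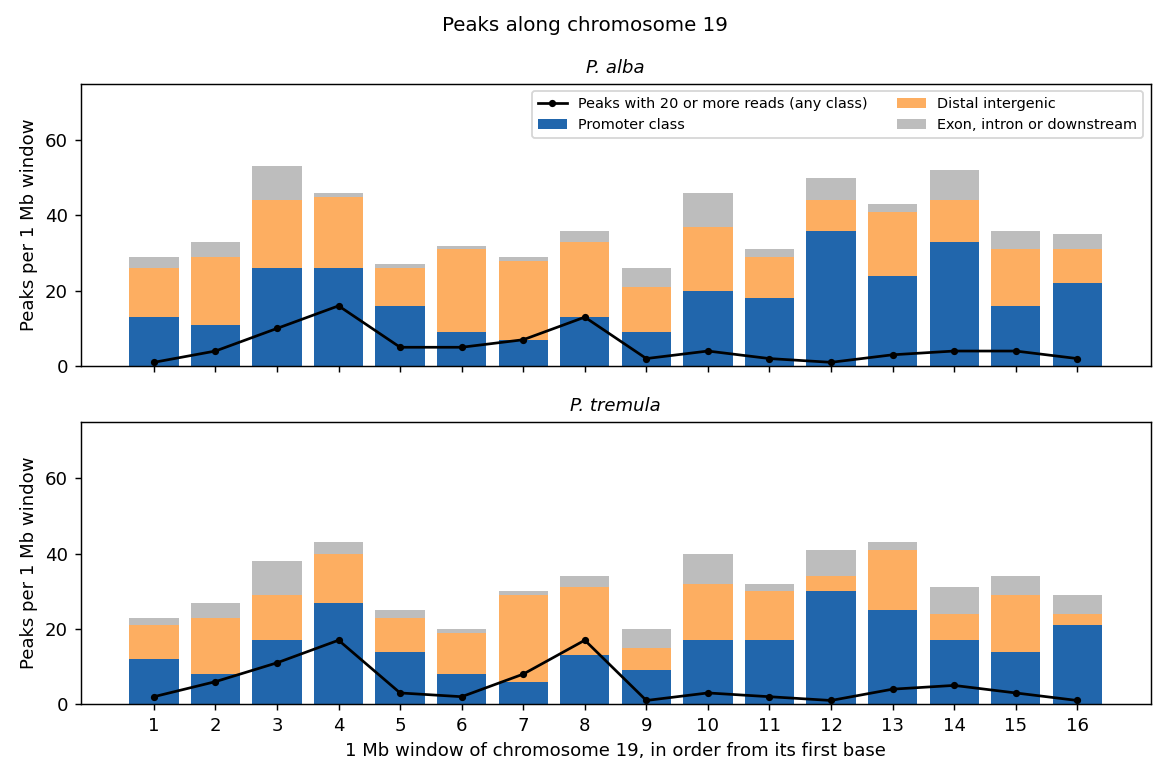
Peaks in each 1 Mb window of chromosome 19, in order from its first base, split by feature class (stacked bars), and the number with 20 or more reads (line) for P. alba (top) and P. tremula (bottom). Distal peaks outnumber promoter peaks in window 2 and windows 6 to 8 of both lists, and deep peaks are most frequent in windows 3, 4 and 8.

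Most of the deepest peaks of the chromosome, including the deepest of each list, lay side by side in a 20 kb stretch. Between 3180000 and 3199999 there were 12 P. alba peaks with 152 to 1080 reads (median 574.5) and 15 P. tremula peaks with 173 to 901 reads (median 522). All were in the promoter class. They belonged to 7 P. alba genes and 8 P. tremula genes, 6 of them the same, with gene lengths of 291 to 1794 bp and 291 to 1798 bp. Folds were low, from 1.98 to 3.35 on P. alba and from 1.64 to 4.38 on P. tremula, over a recovered background of 53.8 to 394.1 reads and 63.1 to 374.2 reads. The stretch held 7 of the 9 P. alba and 8 of the 9 P. tremula peaks with 500 or more reads on chromosome 19. The deepest P. alba peak (3189449 to 3190282, 1080 reads, fold 2.74) lay inside Potri.019G028100, with its summit 731 bp past the start. The deepest P. tremula peak (3186995 to 3187379, 901 reads, fold 3.07) lay inside a neighbouring gene that had no P. alba peak. Of the peaks in the stretch, 7 in each list had a partner on the other subgenome by the summit rule given below. Peaks without one could still overlap. Measured from the start of Potri.019G028100, its P. alba peaks overlapped its P. tremula peaks, but the summits were too far apart to pair. They lay 731 and 1312 bp past the start on P. alba, and 593 and 1643 bp past it on P. tremula.

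The other peaks of 500 or more reads lay outside this stretch. At 6678985 to 6679313 a P. alba peak 196 bp upstream of a start reached 752 reads at a fold of 3.89, while its P. tremula partner (6678458 to 6679082) had 866 reads and 2.94. A P. alba peak 2070 bp upstream of a start (2139603 to 2139755) reached 671 reads at a fold of 3.70, while its P. tremula partner (2139941 to 2140122) had 424 reads and 4.92.

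The highest folds were at other places, over a background far below that of the 20 kb stretch. At the 10 highest of each list the background was 0.989 to 4.39 reads on P. alba and 0.985 to 4.37 on P. tremula. The chromosome 19 median was 1.15 reads in each list. At Potri.019G108000 a peak 2165 bp upstream of the start had 47 reads and a fold of 10.8 on P. alba (13623089 to 13623457). Its partner 2169 bp upstream had 48 reads and a fold of 11.01 on P. tremula (13621200 to 13621568), so this site was nearly the same in both lists. At Potri.019G074600 a peak 169 bp upstream of the start had 20 reads and a fold of 10.6 on P. alba (10878478 to 10878977), and its partner also had 20 reads and 10.6 on P. tremula (10876493 to 10877019). The background was at its lowest value under both. The highest P. alba fold, 11.1 with 28 reads, was in a distal peak 5899 bp upstream of Potri.019G016300 (1776950 to 1777082). Its P. tremula partner (1777313 to 1777444) had the same 28 reads and a fold of 9.45.

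The 10 highest folds of each list shared 5 genes, and 7 of the 10 P. alba and 6 of the 10 P. tremula peaks were in the promoter class. A pair of distal peaks near 1478106 on P. alba had 34 reads in both lists and folds of 8.27 and 8.29. A promoter site near 2019846 on P. alba had 46 reads in both lists and folds of 8.73 and 8.75, with a second peak of its gene beside it (2018715 to 2019061, 27 reads), where the folds were 9.10 on P. alba and 5.70 on P. tremula. A peak 528 bp past a start (13764977 to 13765060 on P. alba) had 23 reads in each list but folds of 9.17 and 5.13. A promoter peak with its summit 2200 bp past a start (12094208 to 12094411 on P. alba), held 17 reads (fold 8.36), against 35 reads and 5.52 for its P. tremula partner. An intron peak held 13 reads (fold 6.50) on P. alba and 26 reads (fold 8.18) on P. tremula (7432244 to 7432393). A promoter peak held 15 reads (fold 7.43) on P. alba and 17 reads (fold 7.56) on P. tremula, where it lay 1531 bp upstream of a start (11151905 to 11152033).

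The subgenomes matched less often on chromosome 19 than elsewhere. A pair was formed from a P. alba and a P. tremula peak of 1 gene identifier whose summits differed by at most 100 bp in their distance from its start. That gave 307 pairs on chromosome 19. Each peak was used once and the rule did not look at overlap, so wide or split peaks can overlap and still lack a partner. On P. alba 50.8% of the peaks had a partner (46.8 to 54.9%), against 68.4% on the other chromosomes (odds ratio 0.478, 0.406 to 0.563, Fisher's exact adjusted p = 2.36e-17). On P. tremula 60.2% had one (55.8 to 64.5%), against 76.1% (odds ratio 0.475, 0.397 to 0.570, Fisher's exact adjusted p = 3.09e-14). Both were the lowest of the 19 chromosomes, below the 58.2% and 64.0% of chromosome 17. The 2 tests share the same pairs and are not independent.

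Distal peaks had a partner less often than promoter peaks, on chromosome 19 and on the others together, and chromosome 19 was lower within each of these classes. In comparisons that were likewise added later, promoter peaks had a partner in 63.5% of cases on P. alba and 74.9% on P. tremula, against 74.8% and 83.1% elsewhere (odds ratios 0.586 and 0.608, Fisher's exact adjusted p = 4.76e-05 and 0.00227). Distal peaks had one in 29.9% and 37.0%, against 49.2% and 54.6% (odds ratios 0.440 and 0.489, Fisher's exact adjusted p = 1.36e-08 and 7.01e-06). The rule allows 100 bp at any distance from the start, so a length difference between the subgenomes can unpair far peaks more readily. Distal peaks of chromosome 19 also lay farther out, with medians of 8193 and 8644 bp, against 7399 and 7248.5 bp elsewhere. The shares were not matched for distance. Among summits of 5 to 9 reads the paired shares were 56.1% and 66.0%, against 71.8% and 80.8%.

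Of the peaks without a partner, 297 on P. alba and 203 on P. tremula, distal peaks made up 56.9% and 58.6%, against 39.9% and 47.1% of unpaired peaks elsewhere. Many were at a gene that had some peak on the other subgenome, 167 (56.2%) on P. alba and 130 (64.0%) on P. tremula, against 56.9% and 60.9%. Whether that peak overlapped the unpaired one was not examined for all of them. The remaining 130 and 73 were at genes with no peak on the other. Such a gene can still have signal below the caller's p threshold there. The strongest unpaired P. alba peak was the last of the chromosome (15912638 to 15912736), with 21 reads and a fold of 9.15 at a gene whose highest P. tremula fold was 3.49. The next (634788 to 634889) had 16 reads and a fold of 7.87, against a highest fold of 5.28 at its gene on P. tremula. A P. alba peak at 9750471 to 9750558 reached a fold of 7.04 with 13 reads, at a gene without any P. tremula peak. On P. tremula, the strongest (7088352 to 7088456) had 24 reads and a fold of 8.42, with its summit 145021 bp upstream of the start of its annotated gene. At another gene the highest fold was 4.52 on P. alba and 7.45 on P. tremula, where the peak (14691961 to 14692150) had 39 reads, and a P. tremula peak at 9271975 to 9272109 had 14 reads and 6.88 at a gene with no P. alba peak. The other strong unpaired peaks were at genes that had peaks in both lists, with folds of 7.61 (7818582 to 7818824) and 7.43 (5976546 to 5976634) on P. alba, and of 8.05 (2020454 to 2020647) and 6.80 (9247825 to 9248107) on P. tremula. Measured from the gene start, the peak at 2020454 to 2020647 overlapped a P. alba peak (2019846 to 2020319). That P. alba peak had another P. tremula peak as its partner (2020173 to 2020360).

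At the level of genes, 310 identifiers had a peak in both lists, which is 75.6% of the 410 P. alba genes and 83.8% of the 370 P. tremula genes. The shares on the other chromosomes were 82.6% and 88.6%. The differences passed the test, which was added after seeing the data (odds ratio 0.654, 0.520 to 0.823, adjusted p = 0.000696, and 0.665, 0.501 to 0.882, adjusted p = 0.00624, Fisher's exact test). Chromosome 17 was lower still, at 75.1% and 81.2%. Genes with a promoter peak numbered 238 and 210, and 176 had one in both. That is 73.9% and 83.8% of them, against 81.6% and 88.9% on the other chromosomes, a difference that was not tested. The share of genes with 2 or more peaks did not differ detectably from that elsewhere, at 121 of 410 (29.5%, 25.1 to 34.2%) on P. alba, against 27.6% (odds ratio 1.10, 0.884 to 1.36, adjusted p = 0.467), and 87 of 370 (23.5%, 19.3 to 28.2%) on P. tremula, against 25.2% (odds ratio 0.911, 0.714 to 1.16, adjusted p = 0.542, Fisher's exact test). Single other chromosomes ran from 21.3 to 32.5% on P. alba and from 22.5 to 29.98% on P. tremula.

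Where peaks did pair, their folds differed more than elsewhere. None of the 307 pairs was out of order along the chromosome, and P. alba summits lay from -429 to 2535 bp away from their P. tremula partners in coordinate. Pairs share a gene, so their order follows that of the genes and says little about the peaks. The class was the same in 304 pairs, which the pairing by gene and distance nearly fixes. The median log2 ratio of the P. alba to the P. tremula fold was -0.0032, with an SD over pairs of 0.25, against 0.17 on the other chromosomes, and the highest of 19. The folds differed by more than 1.5 times in 18 pairs (5.86%, 3.51 to 9.11%), against 1.60% elsewhere (odds ratio 3.83, 2.33 to 6.30, Fisher's exact adjusted p = 1.03e-05, a test added after seeing the data). No other chromosome passed 3.11%. Shallow peaks often have tied folds, chromosome 19 held fewer of them, and these comparisons were not matched for depth. Of the 18 pairs, 13 had the higher fold on P. alba and 5 had it on P. tremula. In 14 the recovered backgrounds also differed by more than 1.5 times.

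Pileups were identical in 215 pairs (70.0%, 64.6 to 75.1%), against 78.0% (odds ratio 0.659, 0.514 to 0.845, Fisher's exact adjusted p = 0.00160, also added). This was not the lowest share, which was 67.2% on chromosome 13, and the highest was 82.1% on chromosome 6. With so many equal pileups, the 2 lists cannot be taken as separate measurements. The pair that favoured P. alba most was distal, with 44 reads and a fold of 5.22 on P. alba (7820081 to 7820173) and 62 reads and 2.30 on P. tremula (7819233 to 7819412), over 7.62 and 26.4 reads of background. The pair that favoured P. tremula most was also distal, with 40 reads and a fold of 2.94 on P. alba (12440624 to 12440809) and 19 reads and 6.51 on P. tremula (12438822 to 12438985), over 12.9 and 2.07 reads of background. In each of these the list with fewer reads had the higher fold.

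**Figure D5:**
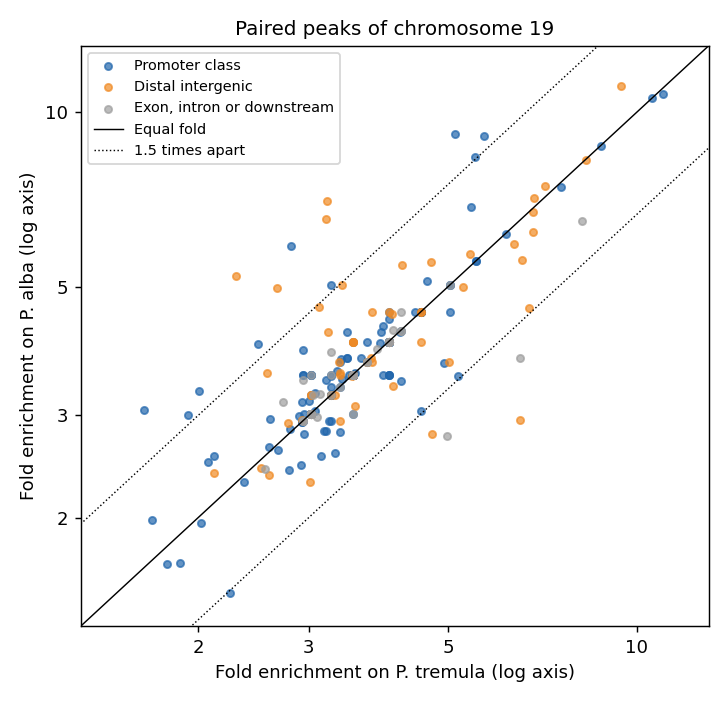
Fold enrichment of the 307 paired peaks of chromosome 19 on P. alba (vertical, log axis) and P. tremula (horizontal, log axis), coloured by feature class, with lines for equal folds and for folds 1.5 times apart. Most pairs lie on or near the line of equal folds, and 18 lie outside the dotted lines, 13 of them above.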

How the data were processed

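The labels list 3 anti-Myc ChIP and 3 input libraries. The submitters' processing notes name ChIPseeker 1.18.0, MACS2 2.2.7.1 and BWA 0.7.17.2, and duplicate marking appears in the deposited peak names. Not given in the sources used here are the genome build, annotation release, calling options and control. Per the file headers, each peak has a pileup (coverage signal at the summit, the only depth the files give), a fold enrichment ratio, −log10 p and q values and an annotated gene. Peaks carry 1 common tag that matches no library, so replicates could not be compared. The 37950 and 34080 deposited rows hold each peak in 2 rows, and each was counted once.

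Shares have exact (Clopper-Pearson) 95% intervals and were compared by Fisher's exact test with normal-approximation intervals of the odds ratio (Python 3.11.15, scipy 1.17.1, pandas 2.3.3). The scripts were tested on simulated data. Chromosome 19 was set against the other 18, and unplaced scaffolds were left out. Alternatives changed the peak threshold, depth limits, chromosomes compared and pairing rule. For each list the named peaks are the 10 of highest fold, the 5 of highest pileup, the 5 strongest without a partner, and the most unequal pairs. Members, tests and thresholds were chosen with earlier results of these data known.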

Additional observations from a re-analysis of the deposited data

How the results depend on the processing

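Of 122 alternative values, 115 kept the direction and the side of the threshold, 3 lost the call and 4 changed direction without passing the test in either setting. The lower promoter share kept its call throughout (odds ratios 0.559 to 0.654 on P. alba and 0.561 to 0.637 on P. tremula), as did the higher distal share (1.84 to 2.15 and 1.62 to 1.87) and the lower share with a partner (0.440 to 0.586 and 0.458 to 0.617). The excess of deep summits lost its call at 50 or more reads (odds ratios 1.36 and 1.46), and on P. alba without the 20 kb stretch of deep peaks (1.25), where fewer deep peaks are left. For folds of 5 or more, the odds ratio was reversed on P. tremula with q at or under 0.05 (0.928) and with unplaced scaffolds added (0.994), and with a fold of 10 or more on P. alba (0.661) and P. tremula (0.683), none past the test. Merely 3 and 2 peaks reach that fold. The stretch, the depth and class subsets and the results marked as added were chosen after seeing the data. No paired analysis was possible because no value in the lists belongs to a single library, so leaving out replicates was not possible either. Summits of 5 to 9 reads, most of both lists, limit what single folds can show.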

Other observations

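Most genes with a peak on chromosome 19 had 1, namely 289 on P. alba and 283 on P. tremula. A few collected 4 or more, namely 20 and 15 genes. The most crowded P. alba gene (7248130 to 7250827) had 7 peaks of 24 to 73 reads between 7244918 and 7250060. The same gene had 6 peaks of 24 to 72 reads on P. tremula between 7244537 and 7249694. The crowding was thus present in both lists, which are not separate measurements. Its neighbour (7234246 to 7237877 on P. alba) had 6 P. alba and 7 P. tremula peaks. Another gene had 3 peaks on P. alba and 7 on P. tremula (6473887 to 6474568), where all were distal and up to 184418 bp from its start. These genes lie between 5000001 and 8000000, but others lay outside, among them a gene at 1770868 to 1771143 and another at 12473510 to 12482562 with 6 P. alba peaks each, and a gene at 3185007 to 3185444 with 5 P. tremula peaks. At the genes starting at 1770868 and 12473510 all 6 peaks were distal, up to 46171 and 26748 bp from the gene start. In the stretch from 5000001 to 8000000 each peak-bearing gene had 2.02 peaks on P. alba and 2.10 on P. tremula, against 1.40 and 1.29 from 8000001 on.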
